A study of Homo sapiens with 4 samples.

Results

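The regions described here are H3K27ac peaks of SK-N-BE(2)C cells that lie far from gene starts and were listed only after depletion of *SNHG1*. SK-N-BE(2)C is an established human neuroblastoma cell line with an amplified *MYCN* gene, and *SNHG1* is a long non-coding RNA that also hosts small nucleolar RNAs. A region was taken when a peak of the *SNHG1*-depletion cells (sgSNHG1) on chromosomes 1 to 22 was over 5000 bp from every protein-coding start of GENCODE and had no peak of the control cells (sgCtrl) within 1000 bp. There were 5241 such peaks, called sgSNHG1-only peaks or members below, of 50119 in the sgSNHG1 list. The members were chosen by measured values, namely the presence of a call in one list and its absence from the other, so their number and height are a description.

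The study held 4 H3K27ac ChIP-seq samples, 2 of control cells that received Cas9 with a non-targeting guide RNA and 2 of cells that received Cas9 with guide RNAs against *SNHG1* (genotype *SNHG1* knockout). The paper states that the knockout was not complete, with *SNHG1* expression significantly lowered. Both kinds of cells were grown from sorted, puromycin-selected cells as clones. The control was 1 clone, and the labels do not say which *SNHG1*-depletion clone was used or whether both replicates came from the same one, so a difference between clones cannot be told apart from depletion. The 2 replicates of each group were combined by the authors before peaks were called, so there is 1 list per group, no spread between replicates and no test between groups. The 95% intervals below are Wilson intervals for shares and Newcombe intervals for differences of shares, and they cover counting error only. Over the *SNHG1* gene (chr11:62851978-62855953) the sgCtrl list had 1 peak with a fold enrichment of 3.44 and the sgSNHG1 list had 0 peaks.

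H3K27ac is the acetylation of lysine on the tail of histone H3, placed by the acetyltransferases CBP and p300 and removed by histone deacetylases. It marks active promoters and active enhancers, which are stretches of DNA away from a start that transcription factors bind to raise the expression of a gene. Adrenergic neuroblastoma cells keep large enhancers at the genes of a small set of transcription factors that sustain each other. Repeats such as Alu and LINE-1 elements make up much of the genome outside genes and are mostly held silent by DNA methylation and by repressive histone marks.

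Of the 28689 distal sgSNHG1 peaks, 18.3% were members, against 13.7% of all sgSNHG1 peaks on these chromosomes. The same rule read in the other direction took 39.7% of the 39878 distal sgCtrl peaks, or 15818 peaks, so distal peaks found in only one list were more often control peaks. The sgCtrl list was longer, with 63699 peaks. The comparison sets below are the 21610 distal sgSNHG1 peaks that overlapped an sgCtrl peak (shared peaks) and the 15818 sgCtrl-only peaks. A further 1838 distal sgSNHG1 peaks lay 1 to 1000 bp from an sgCtrl peak and were in no set. The 100 single-copy peaks just inside the distance rule (1002 to 1129 bp) had a median fold enrichment of 2.95, and the 100 just outside it (881 to 997 bp) had 2.88. At the rule on starts, the 100 peaks just inside (5006 to 5752 bp) had a median of 3.51 and the 100 just outside (4168 to 4985 bp) had 3.05.

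The labelled cell type was checked against lists of marker genes. A peak within 3 kb of a start was present for 10 of 10 adrenergic neuroblastoma markers in both lists. Of 5 markers each, blood had 2 in both lists, endothelium 1 in both, epithelium 4 in sgCtrl and 2 in sgSNHG1, and fibroblasts 3 in sgCtrl and 1 in sgSNHG1. *PTPRC*, *CD3E*, *PECAM1*, *VWF*, *DCN* and *LUM* had no peak in either list.

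The sequences of some members show what the peaks consist of. The first 8 below are 200 bases around the summit of single-copy members that recur in the results, on the forward strand of GRCh38. They are the member with the highest fold enrichment (near *ATP23*) and, for 7 genes, the nearby member with the highest −log10 p. Capitals mark short transcription factor motifs that a search on both strands found.

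*ATP23*, chr12:57935784-57935983: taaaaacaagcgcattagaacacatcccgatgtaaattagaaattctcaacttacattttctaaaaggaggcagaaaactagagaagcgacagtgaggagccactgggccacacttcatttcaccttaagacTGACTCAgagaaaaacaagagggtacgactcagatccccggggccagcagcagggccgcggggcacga

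*SCHIP1*, chr3:159828894-159829093: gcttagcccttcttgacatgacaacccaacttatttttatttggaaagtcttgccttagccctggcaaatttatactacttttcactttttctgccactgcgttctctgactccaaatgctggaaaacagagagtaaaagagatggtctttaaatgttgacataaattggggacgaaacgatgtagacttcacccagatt

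*CACNB2*, chr10:18123325-18123524: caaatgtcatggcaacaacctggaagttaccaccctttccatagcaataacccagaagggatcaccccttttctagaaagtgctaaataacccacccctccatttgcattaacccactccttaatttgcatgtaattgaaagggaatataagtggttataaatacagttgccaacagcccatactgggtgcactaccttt

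*CHGB*, chr20:5864529-5864728: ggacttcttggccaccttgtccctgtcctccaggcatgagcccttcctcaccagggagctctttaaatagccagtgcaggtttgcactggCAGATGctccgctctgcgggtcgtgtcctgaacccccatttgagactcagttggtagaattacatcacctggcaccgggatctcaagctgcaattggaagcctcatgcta

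*CHGA*, chr14:92881474-92881673: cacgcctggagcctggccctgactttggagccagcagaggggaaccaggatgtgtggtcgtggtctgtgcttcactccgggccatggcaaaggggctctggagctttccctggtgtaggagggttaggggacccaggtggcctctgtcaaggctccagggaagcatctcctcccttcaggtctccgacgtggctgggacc

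*CADM1*, chr11:115168027-115168226: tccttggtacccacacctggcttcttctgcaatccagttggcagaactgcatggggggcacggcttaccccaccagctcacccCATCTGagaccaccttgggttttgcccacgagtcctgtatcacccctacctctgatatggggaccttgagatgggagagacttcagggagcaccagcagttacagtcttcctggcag

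*COL4A1*, chr13:110266229-110266428: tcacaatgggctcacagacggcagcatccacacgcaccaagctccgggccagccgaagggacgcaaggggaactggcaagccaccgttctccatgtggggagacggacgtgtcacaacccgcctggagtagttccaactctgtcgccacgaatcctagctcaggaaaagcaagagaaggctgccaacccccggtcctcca

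*COL4A2*, chr13:110371949-110372148: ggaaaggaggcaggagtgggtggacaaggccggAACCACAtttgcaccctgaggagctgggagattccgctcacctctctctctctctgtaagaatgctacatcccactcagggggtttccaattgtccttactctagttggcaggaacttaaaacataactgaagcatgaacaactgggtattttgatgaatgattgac

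GC content ranged from 39.5% at *SCHIP1* to 63.5% at *CHGA*. Motifs stood in 4 of these 8 windows, namely AP-1 at *ATP23*, the E-box CATCTG at *CHGB* and *CADM1*, and RUNX at *COL4A2*.

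Other members lie in repeats. The next sequence is 100 bases of the member with the highest fold enrichment of all, 20.2, inside the centromere block of chromosome 21. It is an array of the 5-letter satellite unit ggaat, read here on its reverse strand.

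Satellite, chr21:10692809-10692908: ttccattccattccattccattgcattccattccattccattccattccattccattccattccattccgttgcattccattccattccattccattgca

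Repeated sequence was told apart first. A member was called repeated when the median 30-base stretch within 100 bases of its summit occurred more than once in the reference, and centromeric when it lay within 2 Mb of a block of alpha-satellite-like periodicity, one block per chromosome. By this measure 1530 members (29.2%, interval 28.0 to 30.4) were repeated or centromeric, against 23.5% of shared peaks and 21.8% of sgCtrl-only peaks. The excess over shared peaks was 5.67 percentage points (interval 4.32 to 7.03). Centromeres gave little of it, since 2.79% of members, 2.81% of shared peaks and 2.07% of sgCtrl-only peaks lay within 2 Mb of a block. When the stretch was lengthened to 75 bases, the read length, 2.33% of members had a repeated summit, so the sequence at most of these summits occurs once at the length of a read.

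Alu elements made up most of the repeated members. Alu is a short element of primates that is found in very many copies, often within genes. Windows of all distal peaks were aligned to the window of 1 Alu-containing member with a minimum of 75% identity over 150 bases. That member was chosen because its window matched the most other repeated or centromeric members. The windows for the other families below were then chosen from the remaining members in the same way. The effect of this choice on the shares was not tested. By this measure 1227 members were Alu-like, which is 23.4% (interval 22.3 to 24.6). The share was 7.74% in shared peaks and 13.6% in sgCtrl-only peaks, a difference of 15.7 points (interval 14.5 to 16.9) from shared peaks and of 9.78 points (interval 8.52 to 11.1) from sgCtrl-only peaks. The higher Alu-like share was seen at every peak strength. At a −log10 p of 6 to 8 it was 21.8% of members and 7.06% of shared peaks, and at 20 or more it was 25.4% of 130 members and 8.41% of 4804 shared peaks. Alu-like members had a median fold enrichment of 3.89, a median summit pileup of 28 fragments and a median GC content of 52.3%. Among single-copy members 195 were still Alu-like (5.25%), with a median 30-base stretch that occurs once, against 1.19% of single-copy shared peaks. The Alu start letters GGCCGGGCG stood in 7.33% of Alu-like members, in 8.43% of Alu-like shared peaks and in 1.44% of the other members. They also stood in 5.91% of the other shared peaks and 2.38% of the other sgCtrl-only peaks, so they were not particular to Alu-like windows.

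Other families went different ways. Windows like the 5′ end of LINE-1, the long element that carries its own promoter there, were 2.84% of members, 1.32% of shared peaks and 2.41% of sgCtrl-only peaks. The difference from shared peaks was 1.52 points (interval 1.07 to 2.03), and the interval of the difference from sgCtrl-only peaks, -0.05 to 0.97, included 0. Windows like the GC-rich repeat array of SVA elements were the reverse, with 39 members (0.744%) against 1173 shared peaks (5.43%). The family names rest on the known sequence of these elements and not on a repeat annotation.

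**Figure D1:**
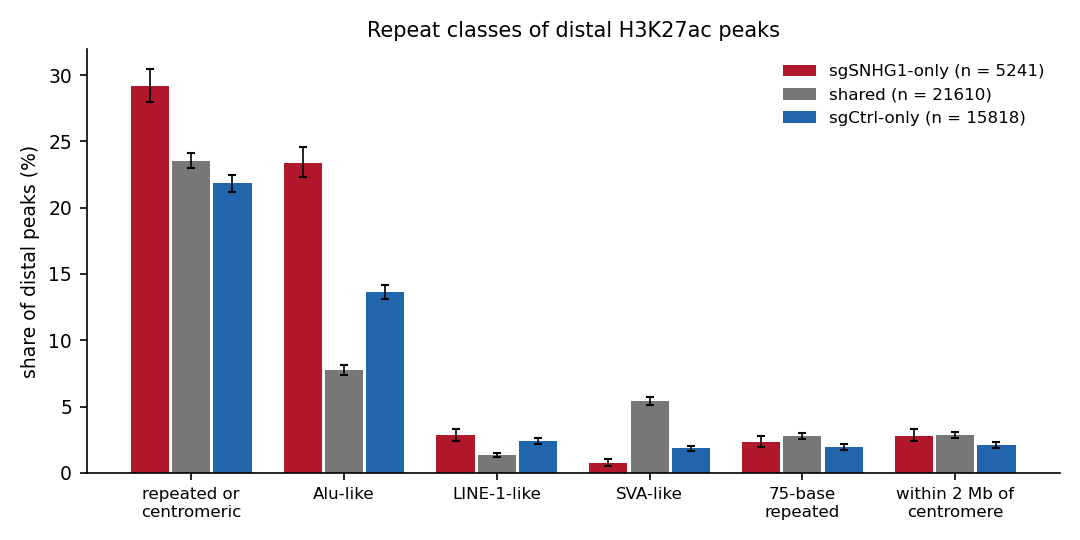
Share of distal peaks (%) in 6 sequence classes, for 5241 sgSNHG1-only, 21610 shared and 15818 sgCtrl-only peaks; lines are 95% Wilson intervals. The Alu-like bar is 23.4% in sgSNHG1-only peaks and 7.74% in shared peaks, and the SVA-like bar is 0.744% against 5.43%.

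The 5 repeated or centromeric members of highest fold enrichment included 3 inside centromere blocks. After the satellite array on chromosome 21 (20.2), a member in *CCDC200* (chr17:43251531-43251916) reached 17.5. Members in the centromere blocks of chromosome 12 (chr12:36272906-36273133) and chromosome 1 (chr1:124905424-124905674) reached 14.0 and 13.6, and one on chromosome 8 near *ATP6V0D2* also reached 13.6. In all, 40 members lay inside a centromere block, with a median fold enrichment of 4.42. The median 75-base stretch at the summit occurred 17.5 times in the reference at the named chromosome 12 member. At the other named members of this group it occurred 1 time, and the median over the 40 members was also 1. How the ChIP-seq aligner treated reads with several possible places is not given in the sources used here. The part of such reads in these peaks was not tested.

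The rest of the account concerns the 3711 single-copy members, which were 17.0% of 21800 single-copy distal sgSNHG1 peaks. They were low and narrow peaks. Their median fold enrichment, that is, summit signal divided by nearby background, was 3.56 (quartiles 3.05 and 4.09), close to 3.45 in shared and 3.35 in sgCtrl-only peaks. Their summits held a median of 32 fragments, against 49 in shared and 40 in sgCtrl-only peaks, over a median local background of 8.10, 13.6 and 11.1 fragments. Their median length was 255 bp, against 386 bp and 297 bp. The −log10 p was under 8 in 15.1% of members and in 5.39% of shared peaks. Members became rarer with strength, from 37.5% of all distal sgSNHG1 peaks at a −log10 p of 6 to 8 down to 2.58% at 20 or more.

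How far members stood above the limit for a call was computed from the lists. At the background of the whole sgCtrl list, 4.89 fragments, a summit needs 19 fragments to pass the authors' p-value of 1e-06. After scaling by the backgrounds of the lists, 66.6% of members (interval 65 to 68.1) stood more than 1.5 times above that limit. The caller uses a local background, but that of sgCtrl at these sites is not in the lists. In its place the member's local background in sgSNHG1 was used, scaled by the list backgrounds and never below that of sgCtrl. Against that limit the median member stood at 1.28 times, 14.4% (interval 13.3 to 15.6) exceeded 1.5 times and 0.997% exceeded 2 times. These values assume a like local background in sgCtrl and largely restate the member's strength in its own list. The lists do not hold the sgCtrl signal at these sites, so how much lower it was there is not known.

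Members were poorer in GC than other distal peaks. The median GC content of 300 bases at the summit was 57.7% in members, 63.7% in shared peaks and 61.3% in sgCtrl-only peaks. Windows under 55% GC were 33.5% of members (interval 32.0 to 35.0), 9.79% of shared peaks and 12.3% of sgCtrl-only peaks. Read the other way, members were 53.7% of the 298 distal sgSNHG1 peaks under 45% GC, 36.6% at 45 to 55%, 17.7% at 55 to 65% and 6.91% at 65% or more. Members under 45% GC were also the higher ones, with a median fold enrichment of 3.93 against 3.32 at 65% or more. Sequence 10 kb to either side of members had a median GC content of 45.3%, so members were still richer in GC than their surroundings.

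Pileup at shared peaks moved with GC in the same direction. Each sgSNHG1 peak was set against the highest pileup of the sgCtrl peaks that overlapped it, which can lower the ratio. Relative to the background of each list, the median log2 of sgSNHG1 over sgCtrl pileup was 0.32 at the 76 single-copy shared pairs under 45% GC, 0.00 at 45 to 55%, -0.23 at 55 to 65% and -0.35 at 65% or more. At Alu-like shared peaks it was 0.01 and at the other shared peaks -0.27. Within 45 to 55% GC the values were 0.03 and -0.01, and within 55 to 65% GC they were -0.02 (428 pairs) and -0.22 (8878 pairs), so the gap was near 0 in the first range and present in the second. The part that a difference in GC between the pooled libraries has in the choice of members was not tested.

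Members were farther from genes than the other sets. Their median distance to a protein-coding start was 43789 bp, against 30970 bp in shared and 32166 bp in sgCtrl-only peaks. Over 100 kb away were 27.7% of members, which was 7.70 points (interval 6.16 to 9.28) more than of shared peaks. Exons of any gene held 11.7% of members and 19.4% of shared peaks, introns 56.3% and 54.0%, and intergenic sequence 32.0% and 26.6%. A start of a lncRNA lay within 1 kb of 219 members (5.90%, interval 5.19 to 6.71), of 7.96% of shared peaks and of 4.41% of sgCtrl-only peaks. Most members were near some acetylated site of the control cells, since 29.7% lay 1 to 5 kb and 39.5% lay 5 to 20 kb from the nearest sgCtrl peak. Over 100 kb from one were 259 members (6.98%). The spread was much the same for sgCtrl-only peaks and the sgSNHG1 list, with 25.6% at 1 to 5 kb, 44.4% at 5 to 20 kb and 5.39% over 100 kb.

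The 10 single-copy members of highest fold enrichment lay apart from each other. The first, at 9.72 with 54 fragments at the summit, was in *ATP23* (chr12:57935684-57936052), 7 bp from a start of the lncRNA *GIHCG* and 5514 bp from the nearest sgCtrl peak. The next 4 were near *CHD6*, a chromatin remodeller (8.22), *ANKRD18B* (7.78), *LNPK* (7.60) and *PRMT6*, an arginine methyltransferase, at 764588 bp (7.57). A member near *SCHIP1* (chr3:159828826-159829627), within *IQCJ-SCHIP1*, reached 7.37 over 802 bp with 88 fragments. The other four were in *PREP* (7.34), *SGCE* (7.25) and *MARCHF8* (7.23) and near *PSMB1*, a proteasome subunit (7.15). Of these 10, the windows of *PRMT6*, *SCHIP1*, *ATP23*, *SGCE* and *MARCHF8* were under 45% GC.

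Of the 5 longest single-copy members, 4 lay within genes. They were 1108 bp in *PRKACB*, a catalytic subunit of protein kinase A, 1031 bp in *GRIA4*, an AMPA-type glutamate receptor subunit, 1021 bp in *OPCML*, a neuronal adhesion molecule, 1015 bp in *GNAI1*, an inhibitory G protein subunit, and 958 bp near *MSMB*. Their fold enrichments were between 3.94 at *OPCML* and 5.64 near *MSMB*.

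Single-copy members had 2434 protein-coding genes as the nearest one, and 1706 of these had 1 member. Of the 2434 genes, 459 had neither a shared nor an sgCtrl-only single-copy distal peak. Repeated peaks and peaks 1 to 1000 bp from the other list were left out of this count. No matching count for the genes of sgCtrl-only peaks is given here, so the 459 genes are not shown to be unusual. The nearest gene is a position and was not shown to be a target. The gene lists below were counted beside single-copy shared and sgCtrl-only peaks, and their genes are described by role. Their intervals treat each peak as independent, also where several lie at the same gene, and were not adjusted for the number of lists.

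The neuronal differentiation list took a somewhat larger share of members than of either other set, with many of the members at *CHGA* and *CHGB*. The neuronal differentiation list (28 genes) was nearest to 23 members at 11 genes, 0.620% of members against 0.345% of shared peaks, a difference of 0.27 points (interval 0.04 to 0.59). The share of sgCtrl-only peaks was 0.340%, lower by 0.28 points (interval 0.04 to 0.60). Of the 23 members, *CHGA* gave 5 and *CHGB* 4, and the intervals do not allow for peaks that share a gene. Chromogranins are proteins of the dense-core granules in which chromaffin cells store catecholamines. *CHGB* had 4 members (chr20:5836500 to 5923584) with fold enrichments of 4.05, 3.94, 5.48 and 3.98, and 0 single-copy distal shared or sgCtrl-only peaks. The member of 5.48 was 46739 bp from the start, and the peak at the *CHGB* start itself was in both lists, with a fold enrichment of 8.64 and a pileup of 75 fragments in sgSNHG1 and of 8.48 and 49 fragments in sgCtrl. *CHGA* had 5 members with fold enrichments of 3.99, 2.69, 3.44, 3.41 and 2.30, beside 13 shared and 6 sgCtrl-only peaks, so there the members added to an acetylated region. Of its 5 members, 3 formed a cluster over 10478 bp that also held 1 other sgSNHG1 peak and 1 sgCtrl peak. *NR2F2*, an orphan nuclear receptor of the neural crest, had 2 members of 6.70 and 4.60, with 1 shared peak. The neurotrophin receptor gene *NTRK3* had 2 members (4.95 and 5.09) and no peak within 3 kb of a start in either list. *SYT1*, the calcium sensor of synaptic vesicles, had 2 members (4.02 and 3.71). The *SYT1* summits held 22 and 20 fragments, near the 18 needed for a call at the background of the sgSNHG1 list. Both genes had 0 single-copy shared peaks. *DPYSL3*, a cytoskeletal protein of growing axons, had 3 members between 3.18 and 3.62 beside 1 shared peak.

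Channels and receptors followed. The channel list (35 genes) was nearest to 20 members at 12 genes (0.539% against 0.387% of shared peaks), and the interval of the difference, -0.07 to 0.46 points, included 0. The share of sgCtrl-only peaks was 0.429% (interval of the difference -0.12 to 0.42 points). *CACNB2*, an auxiliary subunit of voltage-gated calcium channels, had 5 members over chr10:18123289-18203967 and 0 single-copy distal shared or sgCtrl-only peaks. Their fold enrichments were 6.23, 3.78, 4.22, 4.64 and 3.59, with summits of 35, 27, 27, 29 and 34 fragments. The nearest sgCtrl peak was 15062 to 22938 bp away. These distances place an sgCtrl peak, in neither single-copy set, between the members at chr10:18165231 and chr10:18196430. One of the 5 members lay outside the gene and 4 in it, all were under 51% GC, and none was Alu-like. The *CACNB2* start had 1 peak in both lists, with a fold enrichment of 8.45 and a pileup of 144 fragments in sgSNHG1 and of 9.26 and 105 fragments in sgCtrl. *KCNMA1*, a calcium-activated potassium channel, had 2 members, reaching 4.58, and the calcium channel *CACNA1B* had 2, reaching 3.46. The glutamate and GABA receptor list (27 genes) was nearest to 24 members at 10 genes, 0.647% against 0.284%, a difference of 0.36 points (interval 0.13 to 0.68), and the share of sgCtrl-only peaks was 0.388% (interval of the difference 0.01 to 0.59 points). *GABRG3*, a subunit of the GABA-A receptor, gave 9 of these members, with fold enrichments of 2.84 to 4.80. It gave 8 of the 47 shared and 4 of the 48 sgCtrl-only peaks of the list. Much of the difference from sgCtrl-only peaks therefore rested on this gene, and the interval does not allow for peaks that share a gene. *GRIK3* and *GRID1* had 4 members each, reaching 4.11 and 3.32.

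Adhesion and guidance genes took a larger share of members than of shared peaks, but the intervals of their differences from sgCtrl-only peaks included 0. The adhesion list (36 genes) was nearest to 43 members at 16 genes, 1.16% against 0.708% of shared peaks, a difference of 0.45 points (interval 0.12 to 0.87), and 0.865% of sgCtrl-only peaks (interval of the difference -0.05 to 0.72 points). *CADM1*, an immunoglobulin-type adhesion molecule, had 9 members of 2.69 to 4.59 beside 17 shared and 12 sgCtrl-only peaks. One of the 9, the one of 4.59, was Alu-like, and 3 others lay within 1639 bp of each other with 62 fragments at the highest summit. *NCAM2* had 4 members (4.15 to 5.83), *CNTNAP2* 5 (3.17 to 4.77), *CNTNAP5* 2 and *LRRC4C* 3. The axon guidance list (32 genes) was nearest to 27 members at 12 genes, 0.728% against 0.448%, a difference of 0.28 points (interval 0.03 to 0.62), and 0.599% of sgCtrl-only peaks (interval of the difference -0.14 to 0.48 points). The Slit receptors *ROBO2* and *ROBO1* had 4 members (4.42 to 5.67) and 5 members (3.71 to 5.13), the semaphorin receptor *PLXNA4* had 5 (2.95 to 3.85), and the netrin receptor *UNC5D* had 2, reaching 3.89. Many of these genes are long, and gene length was not taken into account in the shares.

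For the extracellular matrix and signalling lists, the intervals of the differences from both other sets included 0. The 2 chains of the basement membrane collagen IV, *COL4A1* and *COL4A2*, lie head to head and had 3 and 6 members over chr13:110254955-110473234. Those in *COL4A1* had fold enrichments of 4.41, 2.94 and 3.83, beside 0 shared and 2 sgCtrl-only peaks, and those in *COL4A2* had 3.04, 3.44, 4.80, 3.73, 3.20 and 3.70, beside 3 shared and 2 sgCtrl-only peaks. The largest summits were 68 fragments over 759 bp in *COL4A1* and 55 over 565 bp in *COL4A2*, 28584 and 40988 bp from the nearest sgCtrl peak. At the starts of both genes the highest fold enrichment was 6.34 in sgSNHG1 and 5.81 in sgCtrl. The highest pileup there was 126 fragments in sgSNHG1, and in sgCtrl it was 64 for *COL4A1* and 75 for *COL4A2*. The matrix list as a whole (36 genes) was nearest to 18 members, 0.485% against 0.387%, with an interval of the difference of -0.11 to 0.39 points, and 0.299% of sgCtrl-only peaks (interval -0.03 to 0.48 points). In the TGF-beta and BMP list (32 genes, 22 members), the share was 0.593% of members, 0.460% of shared peaks (interval of the difference -0.10 to 0.45 points) and 0.421% of sgCtrl-only peaks (interval -0.07 to 0.49 points). The ligand gene *BMP7* had 5 members of 2.90 to 4.33 beside 2 shared peaks, and *ID2*, an inhibitor of E-box factors, had 9 members 51277 to 779836 bp away, beside 26 shared and 21 sgCtrl-only peaks.

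The core regulatory circuitry list (5 genes) was nearest to 5 members, 0.135% (interval 0.06 to 0.32), against 145 shared peaks, 0.877% (interval 0.75 to 1.03), and 19 sgCtrl-only peaks, 0.154% (interval 0.10 to 0.24). The share of members was lower than that of shared peaks by 0.74 points, and the interval of the difference from sgCtrl-only peaks, -0.13 to 0.17 points, included 0. *MYCN* had 2 of the members, with fold enrichments of 3.78 and 3.43, beside 120 shared peaks. The gene is amplified in this line, and the highest pileup at its start was 2811 fragments in sgSNHG1 and 3393 in sgCtrl. *GATA3*, *HAND2* and *TBX2* had 1 member each, of 2.92, 3.93 and 3.54. Without *MYCN* the list had 3 of the 3711 members and 25 of the 16526 shared peaks, so *MYCN* gave most of its shared peaks. The adrenergic factor list (22 genes) was nearest to 31 members (0.835% against 0.756% of shared peaks, interval of the difference -0.21 to 0.45 points, and 0.655% of sgCtrl-only peaks, interval -0.11 to 0.55 points). *SOX11* had 4 members, of 3.90 to 6.16, at 320096 to 531966 bp, *SIX3* 3 reaching 5.11, *ZNF536* 6 reaching 4.60 and *EBF3* 3 reaching 4.38. *PHOX2A*, a homeodomain factor of autonomic neurons, had 4 members in *CLPB* with low fold enrichments of 2.00 to 2.70 at summits of 73 to 101 fragments, 1024 to 3478 bp from sgCtrl peaks. The mesenchymal factor list (30 genes) was nearest to 13 members, 0.350% against 0.369% of shared peaks (interval of the difference -0.20 to 0.24 points) and 0.251% of sgCtrl-only peaks (interval -0.08 to 0.36 points). *TWIST1* and *SMAD3* had 3 members each and *TEAD1* 2, reaching 4.10, 3.36 and 3.32.

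Few members stood in clusters. With gaps of at most 12.5 kb, 28 groups of 3 or more single-copy members held 89 members. The largest was 5 members over 25662 bp in *MACROD1* and near *FLRT1* on chromosome 11 (chr11:64119989-64145650), with low fold enrichments of 2.14 to 2.51 and 1 sgCtrl peak within the span. There were 4 members in *KCNN3*, a calcium-activated potassium channel (chr1:154708106-154717019, 3.11 to 3.68), 4 near *ZC3H12A*, an RNA-degrading regulator of inflammation (chr1:37257537-37267143, 3.14 to 4.48), and 4 in and near *PIK3C2B* (chr1:204429855-204456077, 2.69 to 3.33). The spans at *KCNN3* and *ZC3H12A* held no other peak of either list. All other groups had 3 members, and the one of shortest span was 1372 bp in *VOPP1* (2.90 to 4.15). By gene, *GSE1* had the most members, 13, beside 81 shared peaks. *KCNMB2*, a subunit of calcium-activated potassium channels, had 9 members of 3.49 to 4.60 beside 16 shared and 2 sgCtrl-only peaks, with a median GC content of 45%. *TRABD2B* had 7 members and *FGF14* 6, beside 1 and 3 shared peaks. *KCNMB2*, *TRABD2B*, *FGF14* and *GSE1*, like *CHGA*, *CADM1*, *DPYSL3*, *PHOX2A*, *GATA3*, *HAND2* and *TBX2* above, were chosen after their values were seen.

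The share of distal sgSNHG1 peaks that were members differed between chromosomes. It was highest on chromosome 13 (24.7% of 328, interval 20.3 to 29.6), chromosome 18 (24.7% of 154, interval 18.5 to 32.0) and chromosome 5 (23% of 1212, interval 20.7 to 25.5). It was lowest on chromosome 17 (13.3% of 1591, interval 11.7 to 15) and chromosome 4 (13.4%). Over the 22 chromosomes, the single-copy share rose with the median pileup ratio of shared peaks (Pearson's r = 0.63, Spearman's rho = 0.71) and had little relation to median GC (r = -0.23, rho = -0.30). These are descriptions, since all chromosomes come from the same pooled libraries. Chromosome copy number in the clones was not measured. Among 190 windows of 10 Mb with at least 30 single-copy distal peaks, the share had a median of 19.8% and ran from 4.38% to 41.9% (13 of 31, chr11:80000001-90000000). The next were chr14:50000001-60000000 with 39.5% of 38 and chr3:60000001-70000000 with 39.2% of 51.

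Short motifs were searched on both strands in 300 bases at the summit. The letters were TGANTCA for AP-1, AGATAA for GATA factors, TAATTA for homeodomain factors, TGTGGTT for RUNX, GGAATG for TEAD, AGGTGTGA for T-box factors and AGNNGGCGC for the core of CTCF. The E-boxes searched were CAGCTG, the related form CATCTG, and CACGTG, which MYC proteins bind. The GATA letters were in 5.55% of members and 2.70% of shared peaks, a difference of 2.85 points (interval 2.11 to 3.67). The homeodomain letters were in 1.70% and 0.666%, and AP-1 in 6.20% and 4.79%. The E-box CAGCTG was in 27.4% of members and 34.1% of shared peaks, and the CTCF core in 3.53% and 6.32%. Against sgCtrl-only peaks, GATA (3.22%), homeodomain (0.898%), CAGCTG (32.3%) and the CTCF core (4.37%) differed in the same directions, with intervals that did not include 0. AP-1 was in 5.39% of sgCtrl-only peaks, and the interval of that difference, -0.04 to 1.71 points, included 0. In windows of the same length 10 kb to either side of members, GATA stood at 16.3%, homeodomain at 8.96%, AP-1 at 8.69%, CAGCTG at 14.0% and the CTCF core at 1.32%.

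At 45% GC and above, most motif differences from shared peaks were smaller among windows of like GC content than over all windows. That of CAGCTG kept an interval below 0 from 55% GC on. At 45 to 55% GC, GATA was in 8.41% of members and 7.86% of shared peaks (interval of the difference -1.55 to 2.74 points), AP-1 in 8.78% and 9.49%, CAGCTG in 19.8% and 20.5% and the CTCF core in 1.11% and 1.17%. At 55 to 65% GC, GATA was in 4.16% and 2.99%, a difference of 1.17 points (interval 0.28 to 2.21). The homeodomain letters were in 1.18% and 0.591% (interval of the difference 0.15 to 1.19). CATCTG was in 26.5% and 23.6% (interval 0.75 to 5.08) and CAGCTG in 31.5% and 34.1% (interval -4.91 to -0.30). In sgCtrl-only peaks of this range GATA was in 3.22%, homeodomain in 0.669%, CATCTG in 24.8% and CAGCTG in 32.9%. Intervals of the differences from sgCtrl-only peaks were not computed within GC ranges. At 65% GC or more, CAGCTG was in 32.5% and 37.5%, a difference of -4.95 points (interval -8.99 to -0.67), against -6.70 points over all windows. In that range CAGCTG was in 36.0% of sgCtrl-only peaks. RUNX, TEAD, T-box and CACGTG had intervals that included 0 in all 4 GC ranges. The T-box letters are part of the Alu sequence, standing in 12.8% of Alu-like members and 2.34% of the others.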

How the data were processed

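H3K27ac ChIP-seq was done in 2 samples per group. Reads of 75 bases were trimmed with cutadapt and aligned to GRCh38 with BWA by the authors, who merged both replicates within each group before a single MACS2 call on paired fragments, at a p-value of 1e-06, keeping duplicates and using no input library. Versions, and the handling of reads with several places in ChIP-seq, are not given in the sources used here. The deposited lists hold, per peak, a fold enrichment ratio of summit over local background, the −log10 p, a −log10 q that was not used here, and a score that is 10 times the −log10 p, rounded down. No column of per-sample values was left unused (0), and the number of reads per sample is unknown.

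Pileup and local background were recovered from the ratio and −log10 p, and gave back the deposited values within 0.001 for 99.7% of peaks in both lists. Starts, exons and introns came from GENCODE release 44 on GRCh38. Copy number was counted over all 30-base and 75-base stretches of the reference. Repeat families were assigned with BLAST 2.17.0 at 75% identity over 150 bases. Overlaps, distances and other steps used Python 3.11.15 with numpy 2.4.6, pandas 2.3.3 and scipy 1.17.1. The distances between lists were checked against bedtools 2.31.1 on simulated intervals. Scripts were tested on simulated data. Shares have Wilson intervals.

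The members, gene lists and alternatives were chosen with earlier results of these data known. Named were the 10 single-copy members and the 5 repeated or centromeric members of highest fold enrichment, the 5 longest, the 5 clusters with the most members (ties by shortest span), up to 4 genes per list with 2 or more members, and the 3 chromosomes and windows of highest share. With 1 pooled list per group, no test between groups was made.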

Additional observations from a re-analysis of the deposited data

Results flagged for a closer look

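Chromosome X was not among the chromosomes compared. Of its 221 distal sgSNHG1 peaks, 91 had no sgCtrl peak within 1000 bp, which is 41.2% (interval 34.9 to 47.8), against 18.3% on chromosomes 1 to 22. In the other direction, 103 of 228 distal sgCtrl peaks on X (45.2%, interval 38.8 to 51.7) had no sgSNHG1 peak within 1000 bp, against 39.7%. The result was listed because it lies outside the main measurement, and its cause was not tested.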

How the results depend on the processing

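Of 32 alternatives, 11 stayed within the limits set for each value and 21 did not. A change of direction was not assessed. The cause was not tested except where the setting itself changes what is counted. With peaks of a −log10 p of at least 10, members numbered 2669 in place of 5241, the intron share was 60.03%, the chromosome 13 share 19.4% and the members near list genes 118 in place of 226. The repeated or centromeric share, 29.2%, was 4.87% with 75-base stretches, 20.1% with at least 10 copies and 31.3% with 5 Mb around centromeres. The intron share was 43.7% for protein-coding genes alone, the share near lncRNA starts 9.38% within 3000 bp, and the median height 6.87 as pileup over the list background. The share over 1.5 times the limit, 66.6%, was 88.7% after scaling by the shared pileup ratio and 14.4% at the scaled local background of sgSNHG1. Clusters of 3 numbered 8 with gaps of 5000 bp and 65 with 25000 bp. Any of 10 motifs stood in 66.5% of 300-base windows and 41.7% of 150-base windows. With starts within 100 kb, 117 members were near list genes. In alternatives chosen after seeing the data, the Alu-like share was 25.3% at a −log10 p of at least 10 and 26.1% at 5000 bp from the sgCtrl list, and the share under 55% GC was 37.3% and 36.5%, and 30.2% without Alu-like members. No paired analysis was possible because each group’s replicates had been pooled before peaks were called, and for the same reason no replicate could be left out. Depth limits what the lists show, since a site just under the calling limit in sgCtrl is absent from its list.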
